A study of Homo sapiens with 12 samples.

Results

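The genes CYSLTR1, RRAS, CD109, FAR2, CAPN6, MME and PDGFRL were examined across all groups of a drug study in MM.1S cells. MM.1S is a line grown from a human multiple myeloma, a plasma cell cancer. These 7 genes, of 14884 measured by name, were chosen by their log2 levels, which were much higher both in PD than in control and in FPD than in F. Those differences are therefore given below as descriptions with no test, and nothing is supported with them. The study comprised 12 Affymetrix arrays, 3 in each of 4 groups, all from cells harvested after 24 h. FPD cells received 1 nM filanesib, 500 nM pomalidomide and 10 nM dexamethasone. PD cells received 500 nM pomalidomide and 10 nM dexamethasone. F cells received 1 nM filanesib. The F group's treatment label adds 10 nM dexamethasone, while its title gives only the letter, so whether F cells received the steroid is not settled by the labels. If they did, FPD against F differs in pomalidomide alone, and F against control differs in both filanesib and dexamethasone. Control cells received vehicle. The labels do not state separate cultures within a group, so a p-value rests on array-to-array spread that may be technical.

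Dexamethasone is a synthetic glucocorticoid. It activates the glucocorticoid receptor, which enters the nucleus and binds DNA at paired copies of a short element. Pomalidomide binds cereblon, the substrate receptor of a ubiquitin ligase, which then marks IKZF1 and IKZF3, both transcription factors, for degradation. Filanesib inhibits the kinesin spindle protein, a mitotic motor encoded by KIF11. In myeloma, glucocorticoids and pomalidomide are given together, and both change the transcription of many genes. The 7 genes belong to different families. CYSLTR1, CD109 and MME encode proteins at the cell surface, PDGFRL encodes a protein related to a surface receptor, and RRAS, FAR2 and CAPN6 encode intracellular proteins.

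Array medians lay between 4.23 and 4.27 on the log2 scale, and arrays of a group correlated at r = 0.988 to 0.992 across 53617 rows of the table. Of 8 plasma cell markers measured, the surface proteoglycan gene SDC1 averaged 10.21 in FPD, 10.16 in PD, 10.16 in F and 10.19 in control, and CD27 was the marker near the array medians (4.29 in FPD, 4.44 in PD, 4.40 in F and 4.22 in control). KIF11 averaged 10.38 in FPD, 10.10 in PD, 10.48 in F and 10.21 in control.

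CYSLTR1 (transcript cluster 17112349, X chromosome) encodes a G protein-coupled receptor for cysteinyl leukotrienes, lipid mediators made from arachidonic acid. Its log2 levels were 9.90, 10.20 and 9.70 in FPD and 10.19, 10.31 and 10.09 in PD, against 7.32, 7.71 and 7.62 in F and 7.45, 7.71 and 7.35 in control. The lowest FPD or PD array lay 1.99 above the highest F or control array. By the choice of genes all 7 show such a gap, and over all genes every PD array lay above every control array in 13.2% and every FPD array above every F array in 15.1%. The means differed by 2.69 ± 0.14 (log2, SE) in PD against control, a fold of 6.47 (95% interval 5.28 to 7.93), and by 2.38 ± 0.14 in FPD against F, a fold of 5.21 (95% interval 4.26 to 6.39).

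The promoter of CYSLTR1 is shown because it was the member promoter with matches to both short motifs searched. These were AGAACA (or TGTTCT on the other strand), the single arm of the glucocorticoid response element, and TGGGAA (or TTCCCA), a core sequence bound by the Ikaros family to which IKZF1 and IKZF3 belong. The sequence is the 250 bases before the RefSeq start (GRCh38.p14, chrX:78327612-78327861, minus strand), 5′ to 3′, with matches in capitals.
CYSLTR1: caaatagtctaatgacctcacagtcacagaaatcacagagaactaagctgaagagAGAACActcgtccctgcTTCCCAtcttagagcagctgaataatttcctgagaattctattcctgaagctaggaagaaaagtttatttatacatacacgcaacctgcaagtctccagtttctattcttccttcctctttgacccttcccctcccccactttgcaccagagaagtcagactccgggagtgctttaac
The arm of the glucocorticoid element began 195 bases before the start and the Ikaros core 178 bases before it. Over 35116 promoter windows of the same length in the RefSeq table, 12.4% held the arm and 20.8% the core, so each match is a description and not a site.

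CD109 encodes a surface protein of the alpha-2-macroglobulin family that is anchored in the membrane by a lipid and acts as a co-receptor restraining TGF-beta signalling. On transcript cluster 17010354 (chromosome 6), levels were 7.32, 7.77 and 7.66 in FPD and 7.81, 7.36 and 7.62 in PD, against 5.08, 5.31 and 5.20 in F and 5.07, 5.09 and 5.18 in control. The difference was 2.48 ± 0.13 in PD against control (fold 5.60) and 2.38 ± 0.13 in FPD against F (fold 5.22). FPD and PD arrays were interleaved, as were F and control arrays.

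CD109 was the member with 2 rows in the table, and the rows gave different sizes. The second, transcript cluster 17020838, averaged 4.75 ± 0.09 in FPD, 4.81 ± 0.25 in PD, 4.41 ± 0.09 in F and 4.51 ± 0.20 in control (log2, SD, n = 3). Its differences were 0.30 in PD against control and 0.34 in FPD against F. In PD and control the ranges of this row overlapped, with 4.64 to 5.09 in PD and 4.33 to 4.73 in control. This row lay near the array medians, and detection above background was not tested.

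MME encodes neprilysin, a zinc endopeptidase of the cell surface that degrades small peptides and is known in haematology as CD10, an antigen of B cell precursors and germinal centre cells. Its levels (transcript cluster 16947173, chromosome 3) were 7.16, 7.23 and 7.28 in FPD and 7.62, 7.21 and 7.43 in PD, against 5.31, 5.40 and 5.39 in F and 5.05, 5.29 and 5.11 in control. The difference was 2.27 ± 0.11 in PD against control (fold 4.84, 95% interval 4.13 to 5.66) and 1.85 ± 0.11 in FPD against F (fold 3.62, 95% interval 3.09 to 4.23). All F arrays lay above all control arrays, by a narrow margin.

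The RefSeq table gives MME 4 starts, and which of them these cells use was not measured. The window before the first (GRCh38.p14, chr3:155079422-155079671, plus strand) is shown because it holds a match to the Ikaros core, in capitals, 221 bases before the start.
MME: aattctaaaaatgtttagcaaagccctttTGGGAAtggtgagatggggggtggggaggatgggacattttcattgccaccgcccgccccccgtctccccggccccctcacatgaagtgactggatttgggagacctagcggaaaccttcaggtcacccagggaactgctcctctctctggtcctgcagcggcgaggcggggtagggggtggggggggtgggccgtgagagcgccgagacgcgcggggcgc
The window before the fourth start held this core as well, 114 bases before it, and those of the other two held neither motif. These windows overlap in part.

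PDGFRL encodes a platelet-derived growth factor receptor-like protein that lacks a kinase domain. Its levels (transcript cluster 17066083, chromosome 8) were 7.17, 7.38 and 7.01 in FPD and 7.47, 7.67 and 7.07 in PD, against 5.87, 5.96 and 6.13 in F and 5.57, 5.50 and 5.50 in control. PDGFRL had the smallest gap of the 7 genes between the FPD and PD arrays and the F and control arrays, 0.88, against 1.76 to 2.15 for the others. Its difference was 1.88 ± 0.14 in PD against control (fold 3.69) and 1.20 ± 0.14 in FPD against F (fold 2.30).

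RRAS encodes a RAS-related small GTPase that promotes integrin activation and cell adhesion. Its levels (transcript cluster 16874339, chromosome 19) were 8.84, 9.07 and 8.76 in FPD and 9.02, 8.69 and 8.97 in PD, against 6.56, 6.86 and 6.58 in F and 6.29, 6.43 and 5.91 in control. The F arrays all lay above the control arrays. The difference was 2.68 ± 0.14 in PD against control (fold 6.43, 95% interval 5.23 to 7.90) and 2.23 ± 0.14 in FPD against F (fold 4.68, 95% interval 3.81 to 5.75).

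FAR2 encodes a fatty acyl-CoA reductase of peroxisomes, which makes the fatty alcohols used in waxes and ether lipids. Its levels (transcript cluster 16749583, chromosome 12) were 9.24, 9.47 and 9.27 in FPD and 9.26, 9.32 and 9.18 in PD, against 6.38, 6.84 and 7.03 in F and 6.81, 6.96 and 6.85 in control. The F arrays were the most spread of any group for this gene (SD 0.33), with F replicate 1 the lowest. The difference was 2.38 ± 0.13 in PD against control (fold 5.21) and 2.58 ± 0.13 in FPD against F (fold 5.97).

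The RefSeq table gives FAR2 2 starts. The window before the second (GRCh38.p14, chr12:29223416-29223665, plus strand) is shown because it holds the arm of the glucocorticoid element, in capitals, 64 bases before the start.
FAR2: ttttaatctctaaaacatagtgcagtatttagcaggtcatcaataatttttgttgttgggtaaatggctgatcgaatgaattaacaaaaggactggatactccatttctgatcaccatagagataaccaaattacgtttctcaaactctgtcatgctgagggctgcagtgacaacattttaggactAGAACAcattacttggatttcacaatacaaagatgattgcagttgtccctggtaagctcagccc
The window before the first start held neither motif and had a GC content of 72.8%, against 37.6% for the second window and a median of 58% over all windows.

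CAPN6 encodes a member of the calpain family of calcium-dependent proteases that lacks the catalytic cysteine and stabilises microtubules. Its levels (transcript cluster 17113362, X chromosome) were 8.21, 8.28 and 8.14 in FPD and 8.32, 7.95 and 7.97 in PD, against 5.80, 5.49 and 5.50 in F and 5.75, 5.80 and 5.60 in control. The difference was 2.36 ± 0.12 in PD against control (fold 5.15) and 2.62 ± 0.12 in FPD against F (fold 6.13). Together with FAR2 it was the member whose difference was larger in FPD against F than in PD against control.

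The promoter of CAPN6 (GRCh38.p14, chrX:111270484-111270733, minus strand) is shown as a member window with no match, hence with no capitals.
CAPN6: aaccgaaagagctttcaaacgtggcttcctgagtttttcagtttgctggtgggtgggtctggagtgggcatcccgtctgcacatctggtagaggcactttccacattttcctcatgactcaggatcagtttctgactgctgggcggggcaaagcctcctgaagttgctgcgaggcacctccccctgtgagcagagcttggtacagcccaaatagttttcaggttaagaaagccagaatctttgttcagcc
CD109, too, had no match in its window. In all, 9 windows of 5 members were searched, of which 2 held the arm of the glucocorticoid element and 3 the Ikaros core. The full palindrome, AGAACA and TGTTCT spaced by 3 bases of any kind, occurred in none of these 9 and in 1 of the 35116 windows (0.00285%). Most known glucocorticoid receptor sites lie outside such short windows, and the absence of these letters says nothing about the receptor. RRAS and PDGFRL are named without a sequence.

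**Figure D1:**
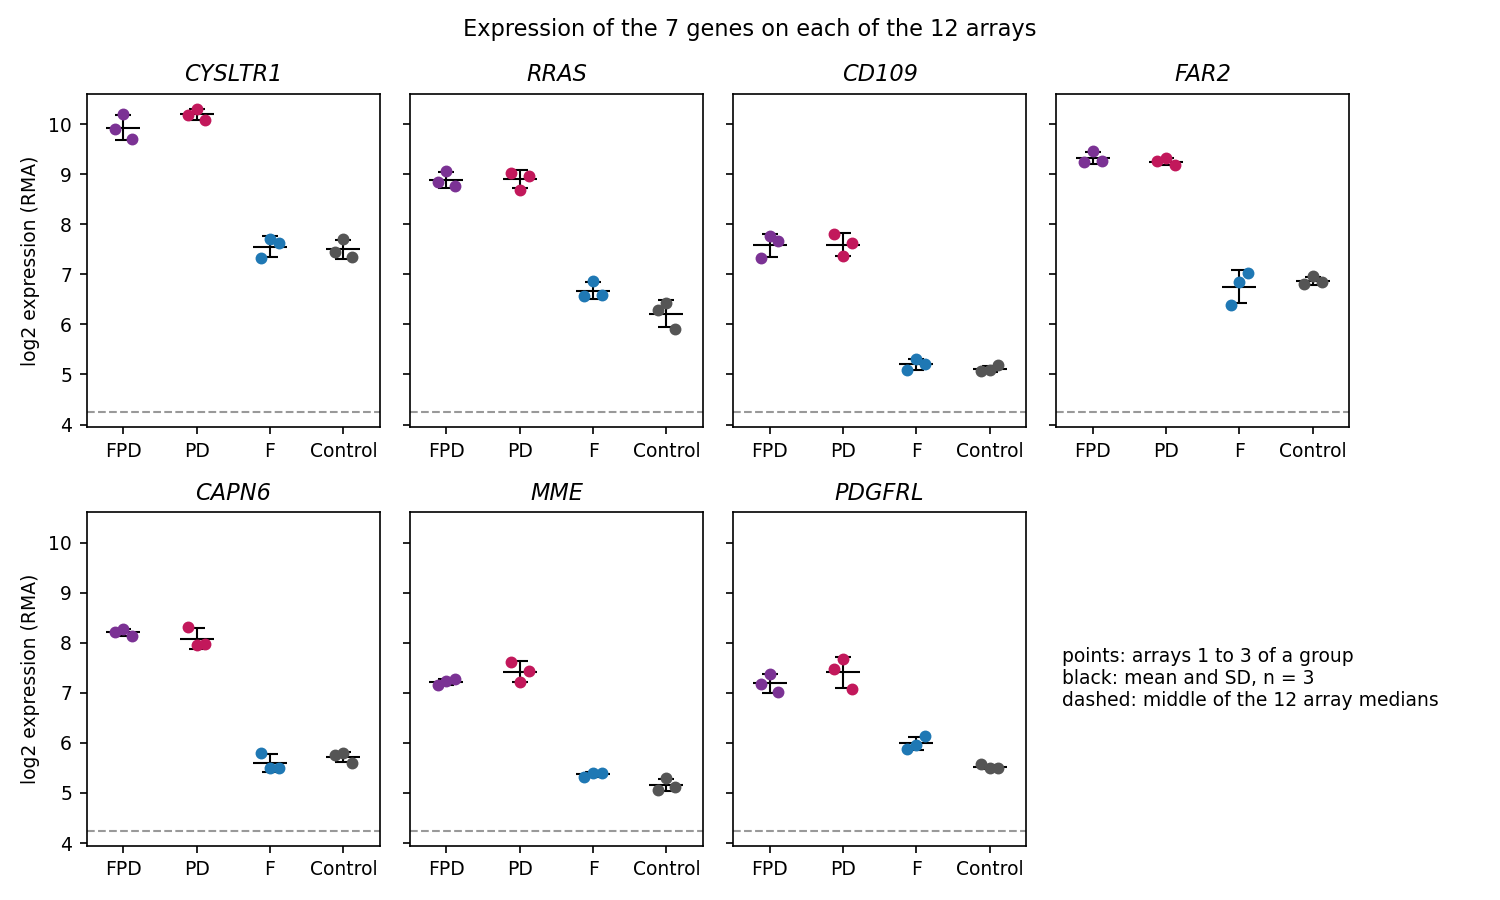
Log2 RMA expression (vertical axis) of each of the 7 genes on the 3 arrays of FPD, PD, F and control (coloured points), with the group mean and SD in black (n = 3) and a dashed line in the middle of the 12 array medians (4.23 to 4.27). In every panel the FPD and PD arrays lie above the F and control arrays, with a gap of 0.88 for PDGFRL and of 1.76 to 2.15 for the other genes.

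All 7 genes were above the array medians in every group on the row that stood for them. Those medians include rows without a gene symbol, and the median over named genes of their mean level was 5.39. Below it lay the F and control means of CD109 (5.20 and 5.11) and MME (5.37 and 5.15). The lowest control means were those of CD109 (5.11 ± 0.06) and MME (5.15 ± 0.12), and detection was not tested, so the fold of these genes may be understated if their signal in control is partly background. The residual SD was 0.128 for MME and 0.201 for RRAS, the lowest and highest of the 7, against a median of 0.135 and a 90th percentile of 0.216 over all genes.

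Genes were ordered by the smaller of the 2 differences that chose them. CD109, CYSLTR1 and FAR2 followed DDIT4 with a smaller difference of 2.38 each, and CAPN6 (2.36) and RRAS (2.23) came next. MME was ninth with 1.85, after DKK1 (2.11) and BMF (1.92), which are not among the 7. PDGFRL was at rank 43 with 1.20, and 33 genes that are no members lay between MME and PDGFRL, from GAS6-DT (1.73) to MYO5C (1.20). Its PD against control difference was at rank 10 of all genes and its FPD against F difference at rank 57. Just below PDGFRL lay TXNIP (1.18), IQGAP3 (1.18) and CTTNBP2NL (1.17).

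**Figure D2:**
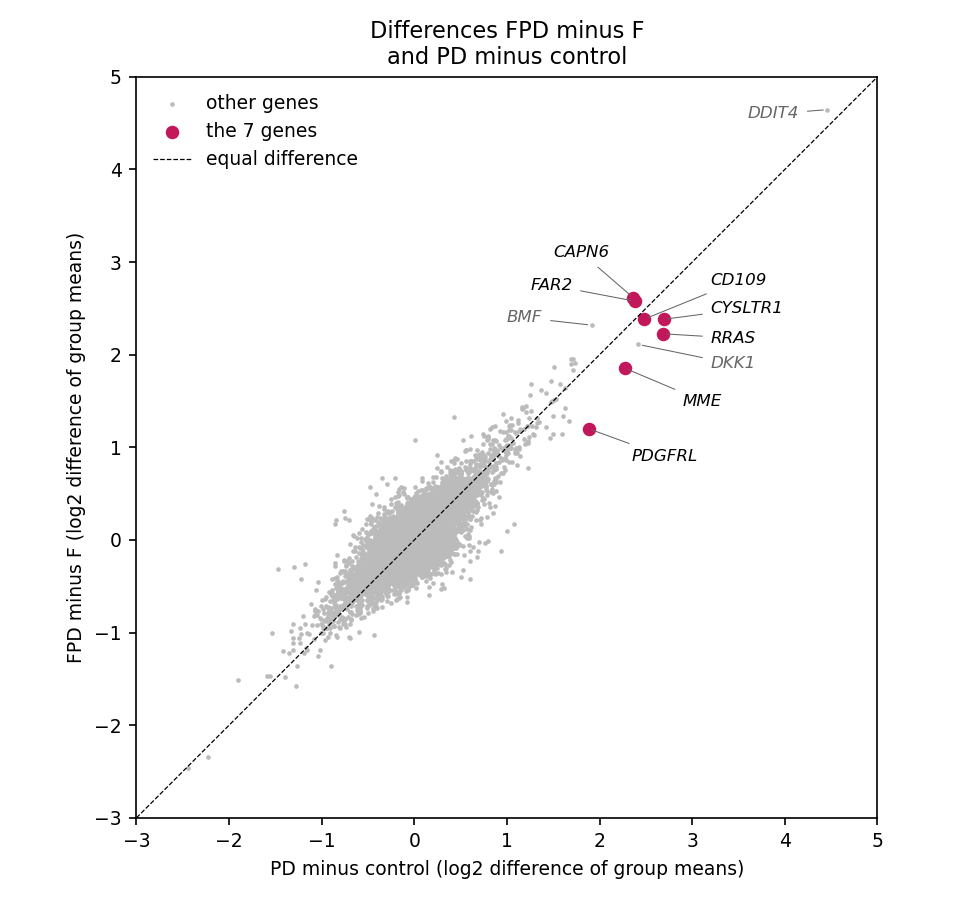
Difference of group means (log2) in PD against control (horizontal) and in FPD against F (vertical) for 14884 genes in grey and the 7 genes in magenta, with DDIT4, DKK1 and BMF named in grey and equality as a dashed line. CAPN6 (2.36 and 2.62) and FAR2 (2.38 and 2.58) lie above the line and the other 5 below it, farthest PDGFRL (1.88 and 1.20).

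Filanesib was addressed by FPD against PD, by F against control and by the mean of both, which had not chosen the genes. Of these, FPD against PD alone is free of the doubt over dexamethasone in F. These contrasts use the same arrays as the choice, so a gene picked for high FPD and PD and low F and control levels is not a fresh sample here. With filanesib added to pomalidomide and dexamethasone (FPD against PD), none of the 7 passed the test (limma, Benjamini-Hochberg adjusted p under 0.05 over all 14884 genes), and none reached an unadjusted p under 0.05. Over all genes 0.0336% passed, and 1283 had an unadjusted p under 0.05. In each of the 7 genes FPD and PD arrays overlapped, as they did in most genes. Over all genes, 8.1% had every FPD array above every PD array and 6.35% every one below. The largest differences were those of CYSLTR1 (-0.26, 95% interval -0.56 to 0.03, limma adjusted p = 0.625), PDGFRL (-0.22, -0.51 to 0.07, limma adjusted p = 0.687) and MME (-0.20, -0.42 to 0.03, limma adjusted p = 0.640). RRAS (0.00, -0.30 to 0.29) and CD109 (-0.01, -0.28 to 0.26) had the smallest. Taking the 7 intervals together, FPD over PD folds below 0.680 (CYSLTR1) or above 1.30 (CAPN6) lay outside all of them.

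In F against control, which includes dexamethasone if the treatment label of F holds, again none of the 7 passed the test (0.00672% of all genes did), and 2 had an unadjusted p under 0.05, against 895 of all genes. These were PDGFRL, 5.99 ± 0.13 in F and 5.52 ± 0.04 in control (difference 0.46, 95% interval 0.17 to 0.75, limma adjusted p = 0.606), and RRAS, 6.67 ± 0.17 in F and 6.21 ± 0.27 in control (0.45, 0.16 to 0.75, limma adjusted p = 0.632). MME followed with 0.22 (-0.01 to 0.45, limma adjusted p = 0.831). In these 3 genes every F array lay above every control array, an arrangement shown by 4.84% of all genes, while 5.15% had every F array below. CYSLTR1 (0.05), CD109 (0.09), FAR2 (-0.13) and CAPN6 (-0.12) overlapped between the groups.

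The mean of the FPD minus PD and F minus control differences, a filanesib effect only if F cells received no dexamethasone, ran from -0.11 (CYSLTR1) to 0.23 (RRAS, 95% interval 0.01 to 0.44, limma adjusted p = 0.554), and none of the 7 passed the test, against 0.43% of all genes. RRAS was the member with an unadjusted p under 0.05. The departure from additivity, the FPD minus PD difference less the F minus control difference, equals the FPD against F value less the PD against control value, both of which chose the genes, so it is given as a description without a test. If F cells received dexamethasone, this departure also holds the steroid's part of F against control and does not describe filanesib alone. It was lowest for PDGFRL (-0.68), RRAS (-0.46), MME (-0.42) and CYSLTR1 (-0.31), near 0 for CD109 (-0.10), and positive for FAR2 (0.20) and CAPN6 (0.25). Over all 14884 genes it passed the test in 0 (limma), and 833 had an unadjusted p under 0.05.

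**Figure D3:**
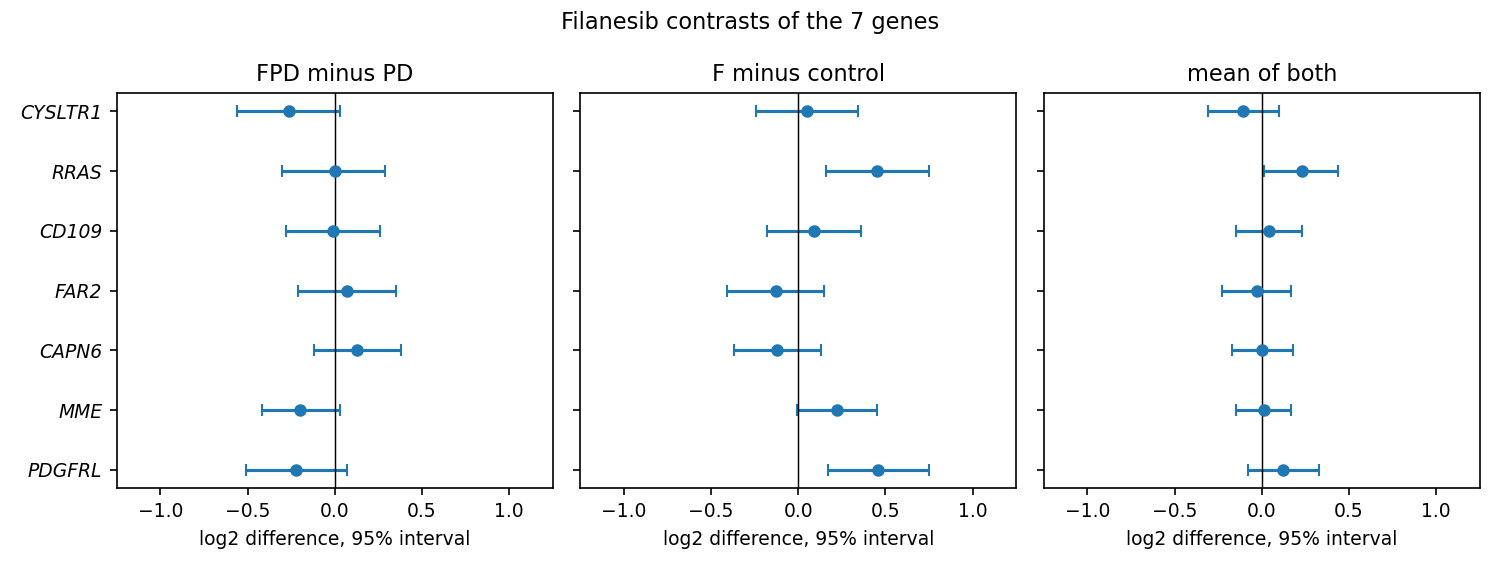
Log2 differences (points) with 95% intervals (bars) for the 7 genes in FPD minus PD, F minus control, and the mean of both. All FPD minus PD intervals include 0, the F minus control intervals of RRAS and PDGFRL do not, nor does the mean for RRAS, and no difference passed the test after adjustment over all genes.

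Genes related to the 7 by family or pathway were examined next, from 9 lists, each holding genes that are no members. Of 177 listed, 124 were measured. The lists were chosen with earlier results of these data known, and all genes include many with low levels. The shares below are therefore descriptions and no test of enrichment. In PD against control 17 of them rose and 12 fell, 23.4% in all, against 15.5% of all genes (6.84% higher and 8.63% lower). With the arrays quantile normalized again, 20 of the related genes rose and 9 fell. Over all genes the balance turned, to 1157 higher and 1081 lower, with 1018 and 1284 in the values as deposited. In FPD against F, 24 rose and 9 fell, 26.6% in all, against 14.1% of all genes (7.5% higher and 6.64% lower). Only 1 of the 124, ALOX5AP, changed at least 2-fold in either comparison. None passed the test in FPD against PD or in F against control.

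Of 12 measured genes of the leukotriene pathway to which CYSLTR1 belongs, 2 rose in PD against control and none fell (list median 0.131, all genes -0.003), and 3 rose and 1 fell in FPD against F. ALOX5AP encodes the protein that presents arachidonic acid to 5-lipoxygenase in the first step of leukotriene synthesis. Its levels were 8.27, 8.39 and 8.19 in FPD and 8.42, 8.38 and 8.14 in PD, against 7.0, 7.24 and 7.19 in F and 6.82, 6.92 and 6.40 in control. The FPD and PD arrays did not overlap the F and control arrays, and ALOX5AP rose by 1.60 ± 0.13 in PD (fold 3.03, limma adjusted p = 6.41e-07) and by 1.14 ± 0.13 in FPD against F (fold 2.20, limma adjusted p = 1.83e-05). MGST2, a microsomal glutathione transferase that can form leukotriene C4, rose by 0.49 in PD (limma adjusted p = 0.00653). LTC4S, the leukotriene C4 synthase gene, did not pass the test in PD against control (0.11, limma adjusted p = 0.612) or in FPD against F (-0.02, limma adjusted p = 0.948). ALOX5, which encodes 5-lipoxygenase itself, had a difference of 0.04 (limma adjusted p = 0.928), and the second cysteinyl leukotriene receptor, CYSLTR2, lay at 3.05 in PD and 3.14 in control, below the array medians.

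Of 14 measured RAS-related GTPases, 2 rose in PD and none fell (list median 0.025), and 3 rose in FPD against F. RALB, a GTPase of the exocyst pathway, rose by 0.85 ± 0.09 in PD (fold 1.81, limma adjusted p = 1.14e-05) and by 0.50 in FPD against F (limma adjusted p = 0.00133). RIT1 rose by 0.52 in PD (limma adjusted p = 0.00179) and by 0.67 in FPD against F (limma adjusted p = 0.000256). The closest relative of RRAS, RRAS2, had differences of 0.03 (limma adjusted p = 0.928) and -0.03 (limma adjusted p = 0.911).

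Among 21 regulators and effectors of RAS proteins, 3 rose and 2 fell in PD, with 7 and 2 in FPD against F. The RAS-inactivating protein gene NF1 rose by 0.84 ± 0.10 in PD (fold 1.79, limma adjusted p = 3.85e-05), with 7.74, 7.54 and 7.50 in PD against 6.66, 6.70 and 6.90 in control. RGL1, an exchange factor for RAL proteins, rose by 0.84 (limma adjusted p = 1.8e-05). RASGRP3, an exchange factor for RAS, fell by 0.48 (limma adjusted p = 0.00757), and RALGDS, an exchange factor for RAL, fell by 0.43 (limma adjusted p = 0.00826). Exchange factors for RAL proteins were thus found in both directions.

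For CD109, 1 of 7 other members of the alpha-2-macroglobulin family rose in PD and in FPD against F, complement C5. It averaged 5.37 ± 0.19 in FPD and 5.42 ± 0.27 in PD, against 4.44 ± 0.13 in F and 4.53 ± 0.19 in control (fold 1.85 in PD against control, limma adjusted p = 0.000347). The F and control levels were close to the array medians. Of 11 genes of the TGF-beta pathway, 1 rose in PD and 3 in FPD against F, and none fell. The gene that passed in both was SMAD3, a transcription factor of the pathway, which rose by 0.60 ± 0.10 in each (limma adjusted p = 0.000789 in PD and 0.000839 in FPD against F). SMAD3 averaged 4.69 in F and 4.69 in control, not far above the array medians.

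Of 19 genes of fatty alcohol and ether lipid synthesis, 3 rose and 6 fell in PD, and 2 rose and 3 fell in FPD against F. SELENOI, an ethanolamine phosphotransferase used in plasmalogen synthesis, fell by 0.92 ± 0.13 in PD (1.89-fold lower, limma adjusted p = 0.000188). DGAT2, an acyltransferase of triglyceride synthesis, fell by 0.91 ± 0.12 (1.88-fold lower, limma adjusted p = 7.82e-05). DGAT1, the other such acyltransferase, rose by 0.35 (limma adjusted p = 0.00707), and TMEM86A rose by 0.44 (limma adjusted p = 0.0317). The TMEM86A call was lost without control replicate 2 or 3 or without any single PD array (limma adjusted p = 0.0579 to 0.136). FAR1, the paralog of FAR2 and named for that after its values were seen, fell by 0.32 in PD (8.98, 8.84 and 8.81 in PD against 9.22, 9.20 and 9.17 in control, limma adjusted p = 0.0268), and this call was lost without any single control array or without PD replicate 2 or 3 (limma adjusted p = 0.0526 to 0.0918).

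Among 11 measured calpains and partners, 1 rose and 1 fell in PD, and 2 rose and none fell in FPD against F. CAST encodes calpastatin, the inhibitor of the classical calpains. It rose by 0.50 ± 0.09 in PD (8.22, 8.03 and 8.25 in PD against 7.65, 7.62 and 7.71 in control, limma adjusted p = 0.00101) and by 0.61 ± 0.09 in FPD against F (limma adjusted p = 0.000217). CAPN10 fell by 0.34 (limma adjusted p = 0.0354), a call lost without any single control array or without PD replicate 1 or 2 (limma adjusted p = 0.0582 to 0.146). In FPD against F its difference was -0.09 (limma adjusted p = 0.679). Of 11 peptidases related to MME by family or function, 1 fell and none rose in each comparison. In PD this was ERMP1, an endoplasmic reticulum peptidase, which fell by 0.66 (limma adjusted p = 0.00146). The close MME relatives MMEL1 (0.04, limma adjusted p = 0.913) and ECE1 (-0.10, limma adjusted p = 0.572) were not past the threshold.

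Of 18 genes of the PDGF and related receptor families, 4 rose and 2 fell in PD, with 3 and 2 in FPD against F. The ligand gene PDGFD rose by 0.67 ± 0.13 in PD (fold 1.59, limma adjusted p = 0.0022) and by 0.87 ± 0.13 in FPD against F (fold 1.83, limma adjusted p = 0.000305). Its means of 4.39 in F and 4.68 in control were close to the array medians. NRP1, a co-receptor, rose by 0.54 in PD (limma adjusted p = 0.00746), with 4.37, 4.46 and 4.54 in PD against 4.10, 4.09 and 3.56 in control, near or below the array medians. In FPD against F its difference was 0.26 (limma adjusted p = 0.216). The angiogenic factor gene VEGFA fell by 0.89 ± 0.10 in PD (1.85-fold lower, limma adjusted p = 2.36e-05). VEGFB fell by 0.26 (limma adjusted p = 0.0491), and its call was lost on leaving out any single array but control replicate 3 (limma adjusted p = 0.054 to 0.176) and with the replicate number as a block (limma adjusted p = 0.0687).

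**Figure D4:**
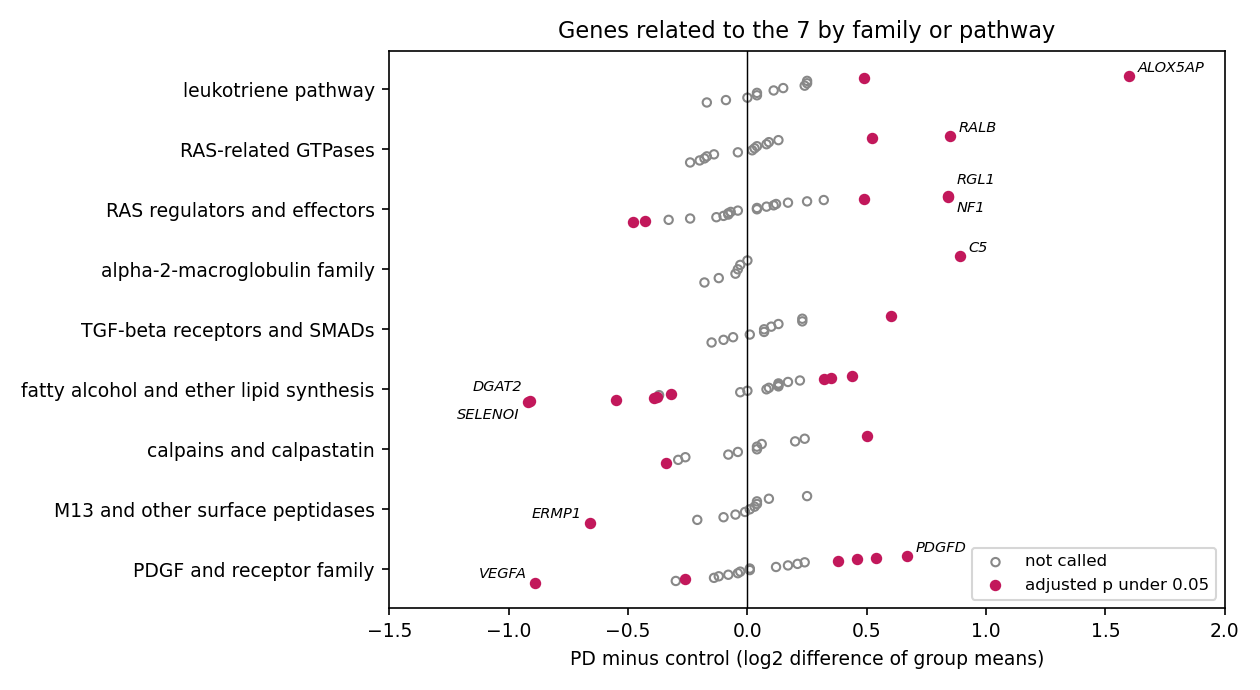
Difference of group means in PD against control (log2, horizontal axis) for the 124 measured genes of the 9 lists, a row for each list, with filled points for genes past the test (limma adjusted p under 0.05) and open points for the others. ALOX5AP (1.60) stands apart from the other points, all of which lie between -0.92 and 0.89.

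The genes with profiles most like those of the 7 were found by the root mean square difference of centred log2 values over the 12 arrays, a description that follows mainly from the size of the change. DKK1, a secreted WNT antagonist, was nearest to CD109 (0.187), MME (0.214), FAR2 (0.232), CYSLTR1 (0.248) and RRAS (0.285). BMF, a pro-apoptotic BCL2 family gene, was nearest to CAPN6 (0.247). Other near genes were ZC3H12A (0.260 from MME, 0.361 from CAPN6 and 0.441 from CYSLTR1), SLFN5 (0.364 from CD109 and 0.434 from RRAS) and MAP3K5 (0.398 from FAR2). PDGFRL differed, with ALOX5AP nearest (0.180), then ANXA4 (0.227) and GRB14 (0.236). Among the 21 pairs within the 7, CYSLTR1 and FAR2 were closest (0.176), and the 6 pairs with PDGFRL were the farthest, at 0.347 to 0.566.

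Markers of other cell types were checked because MME is an antigen of B cell precursors and CYSLTR1 is expressed in myeloid cells. Of 9 measured B cell and B precursor markers none rose in PD against control or in FPD against F, and 1, the complement receptor CR2, fell by 1.23 in PD (limma adjusted p = 3.09e-06). The precursor genes RAG1 (3.13 in FPD, 3.22 in PD, 3.13 in F and 3.23 in control) and RAG2 (3.11, 2.99, 3.02 and 3.04 in the same order) lay below the array medians in every group. VPREB1 (5.67, 5.85, 5.62 and 5.71) and IGLL1 (5.19, 5.22, 5.39 and 5.52 in FPD, PD, F and control), which encode parts of the surrogate light chain of precursor B cells, lay above the medians in every group. On every array, 3 of the 9 markers lay below the highest array median. CD22 also lay below the medians by its group means (4.12, 4.04, 4.17 and 4.11 in FPD, PD, F and control), but not on every array. The array medians include rows without a gene symbol, and the median over named genes was 5.39. Detection of VPREB1 and IGLL1 above background was not tested. The sum of the log2 levels of the B cell list was 39.6 to 40.1 in FPD, 39.5 to 40.6 in PD, 40.1 to 41.2 in F and 41.2 to 41.3 in control. Of 7 myeloid markers 1 rose, CD68, a lysosomal glycoprotein gene, by 1.63 in PD (limma adjusted p = 1.31e-08). LYZ (2.85, 2.88, 2.84 and 2.93 in FPD, PD, F and control) and CD14 (3.47, 3.51, 3.44 and 3.51 in FPD, PD, F and control) were below the array medians. The sum of the log2 levels of the myeloid list was 32.3 to 32.7 in FPD, 32.3 to 33.2 in PD, 30.6 to 31.5 in F and 31.2 to 31.7 in control. CD68 was the marker in it that passed the test, and the other 6 had differences of -0.30 (CSF1R) to 0.13 (CD163) in PD against control. None of 7 T cell markers and none of 5 stromal and epithelial markers passed the test in either comparison. Of the 8 plasma cell markers IRF4 (-1.23, limma adjusted p = 2.2e-07) and SLAMF7 (-0.48, limma adjusted p = 0.000877) fell in PD, and none rose. All arrays are from the MM.1S line, so these marker levels describe that line and not a mixture of tissue cell types. Whether a subset of MM.1S cells contributes to the levels of the 7 genes was not tested. In bulk RNA, a change in few cells and a smaller change in all cells cannot be told apart.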

How the data were processed

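Per the submitters' processing notes, the authors used RMA in Affymetrix Expression Console to make the deposited log2 expression values. Tool versions and genome build are not given in the sources used here. RMA normalizes arrays to a common distribution, so a change in total RNA per cell would not show, and it compresses low signals. Of 53617 rows, 16098 had 1 gene symbol in the platform annotation, 0 had several and 37519 had none. All 14884 entrez identifiers matched the RefSeq table (GRCh38.p14), used for names and promoter sequences. For 779 genes with several rows, the row with the highest mean stood for the gene. No filter on levels was applied. The search for similar profiles used 13144 genes, leaving out members, immunoglobulin and T cell receptor loci, small RNAs and genes with LOC or LINC names.

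The limma package (version 3.58.1, under R version 4.3.3) estimated the mean of each group from the 12 arrays together, leaving 8 residual degrees of freedom, with moderated variances from eBayes. P-values were two-sided and adjusted by Benjamini-Hochberg over all genes. The threshold was an adjusted p under 0.05, and "rose" and "fell" refer to it, apart from descriptions of the 7 genes. The fit was run on simulated data with independent noise, a check that required recovery only of changes of at least 2-fold. Whether it would find the smaller filanesib differences is not shown here. The number of arrays limits the precision. Related genes named are, per list, the 2 highest and 2 lowest that passed in PD against control; near genes are the 3 most alike per member. The members and lists were chosen with earlier results of these data known. Promoter windows were searched on both strands. Alternatives were another choice of row, quantile normalization, a filter on low values, every row of the table, fewer groups, a trended prior, the replicate number as a block and each array left out.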

Additional observations from a re-analysis of the deposited data

How the results depend on the processing

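None of the 7 genes passed the test in FPD against PD, F against control or the mean filanesib effect under any of the 19 alternatives run, of which 12 left out 1 array. Restricting the fit to the groups compared could not be run for the mean filanesib effect or the departure from additivity, which use all groups. Of 252 recomputed values of single genes in these last contrasts 236 kept their direction and 16 changed sign. The sign changes concerned values near 0. In the mean filanesib effect CD109 was -0.0195 with the mean of its rows, and CAPN6 (-0.0225) and MME (-0.0164) were negative with the arrays quantile normalized again. With each array left out in turn the mean filanesib effect ran from -0.0194 to 0.106 for CD109, -0.0995 to 0.063 for FAR2, -0.047 to 0.0639 for CAPN6 and -0.0414 to 0.0632 for MME, and the departure from additivity of CD109 from -0.219 to 0.0313. The cause was not tested. Related genes called were 23 to 31 in PD against control and 23 to 35 in FPD against F over the alternatives, and calls among the 14884 genes, or the 7442 left by the filter, were 1799 to 2438 and 1428 to 2249. With all 53617 rows tested, 3185 and 2648 rows were called. Same-numbered arrays correlated in their deviations at r = -0.219 to 0.107, above 0.1 in 1 of 18 pairs, so the numbers were not taken to pair the arrays, although 7 of 12 arrays correlated best with their own number. With the replicate number as a block 29 related genes were called in PD against control and 32 in FPD against F, with 2277 and 2057 of all genes, and none of the 7 genes in the filanesib contrasts. The calls of CAPN10, FAR1, TMEM86A and VEGFB in PD against control were also lost with every row of the table tested (limma adjusted p = 0.0875, 0.0566, 0.102 and 0.0756), and those of CAPN10, FAR1 and VEGFB with the arrays quantile normalized again or with the compared groups alone (0.0535 to 0.125). Weak signals near the array medians limit the second row of CD109 and several related genes.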
